A study of Mus musculus with 2 samples.

Results

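The *Xcr1*- and *Clec9a*-expressing conventional dendritic cells of CT26 tumours (type 1 conventional dendritic cells, cDC1) comprised 118 of 13939 cells, 51 of 7163 from untreated (UT) tumours and 67 of 6776 from bupivacaine gel (BUP) treated tumours. They were chosen by measured values: at least 2 UMIs (unique molecular identifiers, each counting 1 captured RNA molecule) over *Xcr1* and *Clec9a* together, at least 1 of *H2-Ab1*, no *Cd3d*, *Cd3e* or *Cd3g*, at most 2 of *Ccr7*, fewer than 15 UMIs of *C1qa*, *C1qb* and *C1qc* per 10000, and less than 20% mitochondrial UMIs. The levels of these genes, and of any gene set against other cell classes, are therefore given as a description and with no test.

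CT26 is a mouse colon carcinoma line, and the tumours grew under the skin of male BALB/c mice aged 6 to 8 weeks. The study asked how acetylcholine from nerves acts on cancer and immune cells of the tumour. The BUP group received a single dose of 40 mg/kg of bupivacaine, a local anesthetic that blocks nerve conduction, in a hydrogel given near the tumour (labelled BUP-Gel), and the UT group received neither drug nor gel, so drug and gel cannot be told apart. Each group was 1 library of 5' single-cell RNA, pooled from 3 tumours after live CD45+ and CD45- cells were sorted and recombined with CD45+ cells in excess. Cells are not replicates of a treatment. With 1 library per group the difference between treatments has no replicate check, no p-value is given, and all intervals are 95% intervals that cover counting error only. Treatment, animal pool and the chip lane in which the cells of each group were captured also cannot be told apart.

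cDC1 are the dendritic cells best known for cross-presentation, in which antigen taken up from dead cells is loaded on MHC class I and shown to CD8 T cells. Their development depends on the transcription factors *Batf3* and *Irf8*. *Xcr1* is the receptor for the chemokine Xcl1, which natural killer and CD8 T cells release, and *Clec9a* encodes DNGR-1, a receptor for actin filaments exposed on dying cells.

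Sequencing depth was alike in both sets. The cDC1 held a total of 888385 UMIs in UT and 1168278 in BUP, with a median of 16491 UMIs per cell in UT (4925 to 41957) and 16078 in BUP (2806 to 51194). The median number of genes was 3792 and 3653, and the median mitochondrial share was about 2% in both. Of all barcodes, 76 occurred in both libraries; 1 cDC1 barcode was among them, and no cell counted as cDC1 in both. Before the other limits, 154 barcodes carried at least 2 UMIs of *Xcr1* and *Clec9a*. Of these, 1 was lost for lacking *H2-Ab1*, and 17 for a *Cd3* UMI, 11 for *Ccr7* and 19 for C1q, some for more than one reason. Both genes were present in 103 of the cells, *Clec9a* alone in 11 and *Xcr1* alone in 4.

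The label was checked with the markers *Itgae* (CD103, an integrin that binds E-cadherin) and *Plet1* (a surface protein of epithelial progenitors and some dendritic cells), which the rule did not use. *Itgae* stood at 402 counts per 1000000 UMIs of these cells (CPM; interval 361 to 446) in UT and 351 (318 to 387) in BUP, in 46 of 51 and 59 of 67 cells. *Plet1* stood at 932 CPM (870 to 998) and 644 (598 to 691), in 44 and 51 cells. Both markers were found together in 42 of 51 UT cells (82.4%) and 50 of 67 BUP cells (74.6%), and neither in 3 and 7 cells. With every cell thinned to 2000 UMIs, *Itgae* was detected in 52.9% of UT and 41.8% of BUP cDC1, but in 0 of 310 and 0 of 561 CD8 T cells (upper limits 1.18% and 0.655%), whose median depth before thinning was 6608 and 7217 UMIs. Thinned *Plet1* was detected in 74.5% and 50.7% of cDC1, against 0.323% and 0 in CD8 T cells. In the other dendritic classes thinned *Itgae* was not detected in any of 29 and 21 migratory or 46 and 25 *Cd209a* cells. Thinned *Plet1* was detected in 10.3% and 0 of the migratory and in 6.52% and 8.0% of the *Cd209a* cells. Both markers were thus present in most cDC1 and rarer in the CD8 T cells and the other dendritic classes.

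Within single cells, *Xcr1* ranged from 0 through a median of 2.23 to 8.81 UMIs per 10000 in UT and from 0 through 2.35 to 11.0 in BUP. *Clec9a* ranged from 0.452 through 3.08 to 10.6 in UT and from 0 through 2.74 to 8.62 in BUP. The cells of the groups overlapped over nearly the whole of both ranges. The gene bodies lie, on GRCm39 with GENCODE vM39, at chromosome 9, 123681380 to 123691094, minus strand (*Xcr1*); chromosome 6, 129385825 to 129401726, plus strand (*Clec9a*); chromosome 11, 72981409 to 73039917, plus strand (*Itgae*); and chromosome 9, 50405817 to 50420299, plus strand (*Plet1*).

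At the limit of the rule the cells were more mixed. The 11 cells with exactly 2 UMIs of *Xcr1* and *Clec9a*, just inside, held 146 CPM of *Itgae*, 654 of *Plet1* and 3046 of *Lyz2*, a lysozyme gene of macrophages and monocytes. The 39 cells with exactly 1 UMI that met the other limits, just outside, held 50.7, 236 and 8738 CPM. Among the 107 cells with 3 or more UMIs the values were 388, 776 and 1413 CPM. The 3 UT cells with exactly 2 UMIs had no UMI of *Itgae* or *Plet1*, whereas the 8 BUP cells of this kind had 205 and 918 CPM. Outside the *Ccr7* limit lay 4 cells that met the rest of the rule, 1 of 52 in UT and 3 of 70 in BUP. Together they held 1527 CPM of *Fscn1*, 679 of *Il12b* and 633 of *Ccl22*, genes of mature migrating dendritic cells.

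Among cells with a UMI of *Ptprc* (CD45), cDC1 made up a larger share in the BUP library. The UT library held 50 among 5310 such cells, a share of 0.942% (exact binomial interval 0.700 to 1.24). The BUP library held 62 among 3807, a share of 1.63% (1.25 to 2.08). The BUP share was thus 1.73-fold higher, by 0.687 points (0.206 to 1.20). Of all cells, the shares were 0.712% and 0.989%, and the interval of their difference, -0.0377 to 0.598 points, held 0. The 8 alternative gates and cell filters gave BUP shares from 1.39 to 1.84 times the UT share. The lowest came from a gate on 8 other cDC1 genes, which kept 33 cells in each library, 31 of them in each with a *Ptprc* UMI. There the shares differed only through the count of *Ptprc*-positive cells. Of the cells that this gate kept, 31 in UT and 28 in BUP were among the 51 and 67 cDC1. Its limit was the median of the cDC1. Of its genes, *Cadm1* and *Naaa* had a higher level in BUP cDC1 and the others a lower one. The number of cells it kept thus also depended on the level of these genes. The other alternatives kept the *Xcr1* and *Clec9a* rule and so held mostly the same cells. Sorting and recombining set the CD45+ part of each library, and *Ptprc*-positive cells were 74.1% of UT and 56.2% of BUP cells.

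In the 2 other dendritic classes no difference in share went beyond counting error. *Cd209a* dendritic cells, gated on a marker of type 2 conventional and monocyte-derived dendritic cells, were 0.866% (0.635 to 1.15) of *Ptprc*-positive cells in UT and 0.657% (0.425 to 0.968) in BUP. Migratory dendritic cells, gated on *Ccr7* and *Fscn1*, were 0.339% (0.201 to 0.535) and 0.394% (0.221 to 0.649). Both differences had intervals that held 0. For the migratory class, with 18 and 15 cells, the interval of -0.207 to 0.345 points was too wide to tell its pattern from that of cDC1. Within the 3 dendritic classes together, cDC1 were 51 of 127 cells (40.2%) in UT and 67 of 114 (58.8%) in BUP, a difference of 18.6 points (5.41 to 31.2). The rest of the CD45+ cells also differed: C1q macrophages were 20.4% and 13.2%, and CD8 T cells were 5.78% and 14.3%. Without the C1q macrophages in the denominator, the cDC1 shares were 1.18% and 1.88%.

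**Figure D1:**
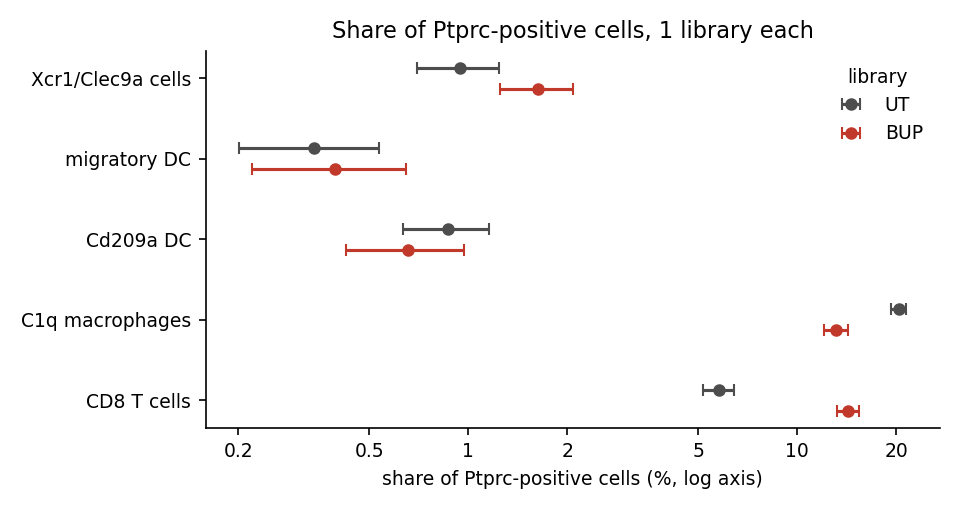
Share of *Ptprc*-positive cells (%, logarithmic horizontal axis) taken by cDC1 and 4 comparison classes in the UT (grey) and BUP (red) libraries, as points with exact binomial 95% intervals. cDC1 were 0.942% in UT and 1.63% in BUP, while the *Cd209a* and migratory dendritic classes had overlapping intervals.

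The genes that set cDC1 most apart from the comparison classes included the innate receptors *Tlr3* and *Tlr11*. Of 5322 genes with at least 50 UMIs that the rule did not use, the 25 with the highest ratio to the next highest class, taking the lower of the libraries, were *Gpr33*, *Rasgrp3*, *Cpne4*, *Plet1*, *Itgae*, *Tlr3*, *Ffar4*, *Sult1a1*, *Fam149a*, *Hepacam2*, *Ccser1*, *Plpp1*, *Tlr11*, *Mctp1*, *Rtl8c*, *Cd24a*, *Asb2*, *Khdrbs3*, *Mycl*, *Rab7b*, *Btla*, *Wdfy4*, *Chsy3*, *Fndc5* and *Sema4f*. The cells were chosen in the same libraries, so this order is a description. The most abundant was *Wdfy4*, which is required for cross-presentation by cDC1: it stood at 1002 CPM in UT and 774 in BUP, against 183 and 69.9 CPM in *Cd209a* dendritic cells, the next class. *Tlr3*, the endosomal receptor for double-stranded RNA, stood at 160 and 106 CPM, against 10.5 and 7.60 in C1q macrophages. *Tlr11*, a receptor for microbial profilin, stood at 63.0 and 65.9 CPM, and the next class held 3 and 1 UMIs. *Cd24a*, a surface glycoprotein, stood at 716 and 768 CPM. *Btla*, an inhibitory receptor of the immunoglobulin family, stood at 262 and 193 CPM and was found in 92.2% and 89.6% of the cells. For many of the 25 genes the next class rested on 1 to 12 UMIs, so the ratios themselves are imprecise.

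**Figure D2:**
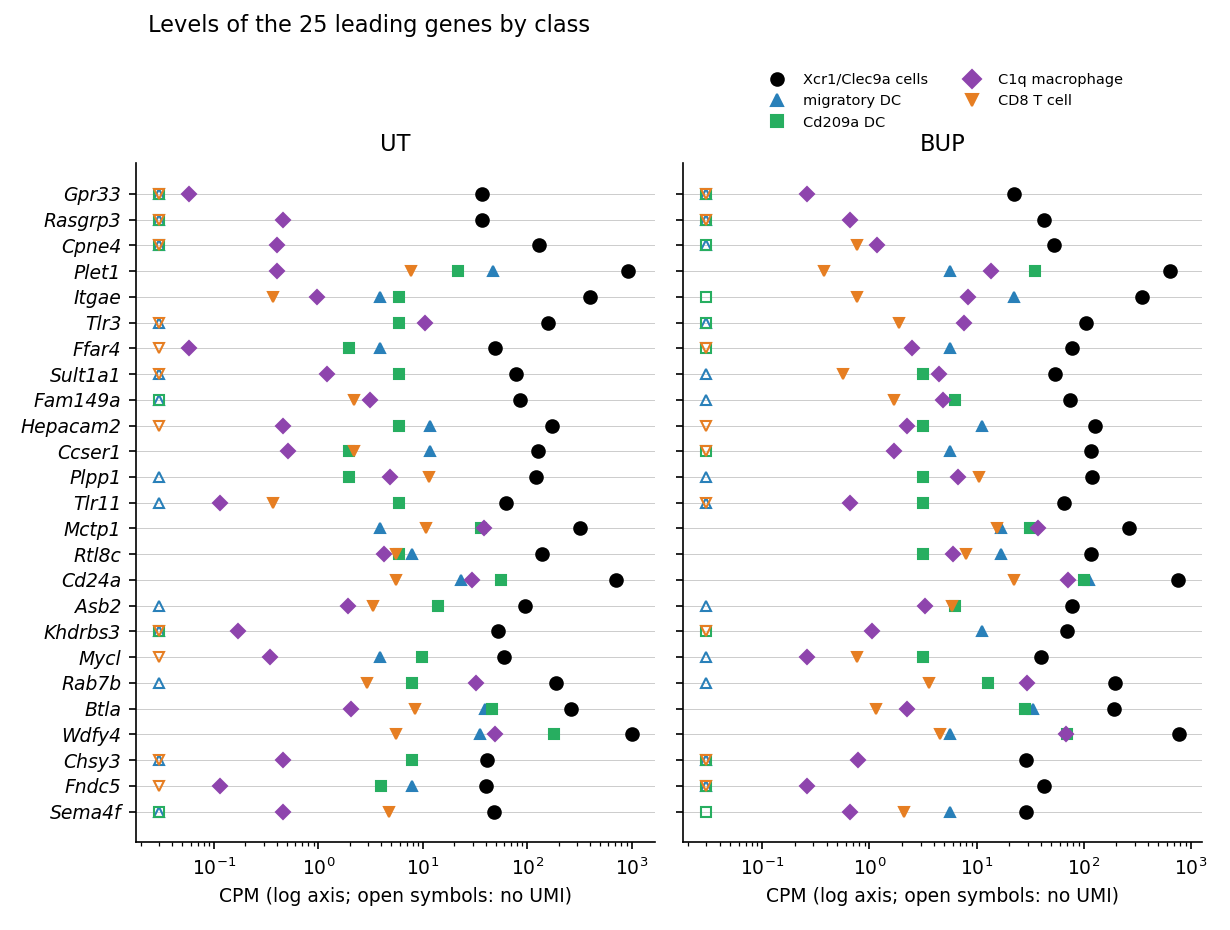
Level of the 25 leading genes (CPM, logarithmic horizontal axis) in cDC1 (black circles) and 4 comparison classes, for UT (left) and BUP (right). Open symbols at the left edge stand for classes with no UMI, and the black circles lie to the right of all other symbols in both libraries.

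Between treatments the expression of most genes was alike. Over 5328 genes with at least 50 UMIs in cDC1, the median log2 ratio of CPM, BUP over UT, was -0.06, and the middle 90% of genes lay between -0.74 and 0.54. By this ratio 60 genes, or 1.13%, were at least 2-fold higher in BUP and 118, or 2.21%, at least 2-fold lower. The exact counting interval lay above 0 for 368 genes (6.91%) and below 0 for 613 (11.5%). These shares are the background against which the counts of each gene list are read. All list values are counts and medians of log2 ratios, and none was tested.

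The lineage genes differed little between libraries. Of 20 cDC1 lineage genes none was past 2-fold in either direction, 3 had intervals above and 6 below 0, and the list median was -0.04. *Irf8* stood at 1998 CPM in UT and 1855 in BUP, and *Batf3* at 143 and 132 CPM, with a log2 ratio of -0.12 (-0.47 to 0.23). *Id2*, a transcription regulator needed for cDC1, stood at 1152 and 1344 CPM, and *Cadm1*, an adhesion molecule of cDC1, at 397 and 466 CPM. The ratios of *Id2* and *Cadm1* were 0.22 and 0.23, and that of *Id2* was -0.06 once cells cycling by the full 20-gene list were left out and -0.14 by a shorter list (both lists are described with the cycling shares). Lower in BUP were *Flt3*, the growth factor receptor that sustains dendritic cells (214 and 163 CPM, ratio -0.40, interval -0.69 to -0.10), and *Tlr3* (ratio -0.59, -0.95 to -0.23). Without cells cycling by the full list these ratios were -0.11 and -0.07, and by the shorter list -0.21 and -0.22. *Plet1* had a ratio of -0.53 (-0.68 to -0.39), and in its range over all alternatives, -1.04 to -0.41, it was below 0 throughout. Among these, the gate on 8 other genes used *Plet1* itself. In other classes *Plet1* was rare and went both ways. It held 7 UMIs in UT and 105 in BUP in C1q macrophages, and 21 and 2 in CD8 T cells. In migratory dendritic cells it held 12 and 1, and in *Cd209a* dendritic cells 11 and 11. *Cst3*, cystatin C and one of the most abundant transcripts, ranged per cell from 10.1 through 371 to 836 UMIs per 10000 in UT and from 26.1 through 398 to 746 in BUP.

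The antigen presentation machinery was also close to equal. None of 20 genes of MHC class I and cross-presentation was past 2-fold, 3 had intervals below 0, and the median was -0.04. *H2-K1*, a classical class I heavy chain, stood at 1668 CPM in UT and 1620 in BUP (ratio -0.04, -0.14 to 0.06). *Tap1*, a subunit of the transporter that brings peptides to class I, stood at 563 and 466 CPM, with a ratio of -0.27 (-0.45 to -0.10). None of 13 genes of MHC class II was past 2-fold, 7 had intervals below 0, and the median was -0.08. *H2-Aa* stood at 14964 and 13795 CPM and *Cd74*, the invariant chain, at 24023 and 22779. *Ctss* and *Ifi30*, which process antigen in the endosome, had ratios of -0.30 and -0.35. BALB/c alleles differ from the reference at the MHC, a limit that both libraries share.

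Of the costimulatory list, 7 of 12 genes had enough UMIs to compare, none past 2-fold, with a median of -0.09. *Cd86* stood at 386 and 330 CPM (ratio -0.23, -0.44 to -0.01) and *Cd83*, a maturation marker, at 581 and 606 CPM (0.06, -0.10 to 0.23). In the list of maturation and migration, 6 of 16 genes were compared with a median of 0.15. The one past 2-fold was *Ccl17*, a chemokine of mature dendritic cells, with 14 UMIs in 5 UT cells and 60 in 8 BUP cells.

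Ligands that restrain T cells were split. Of 12 such genes 7 were compared, 4 with ratios below and 3 above 0: 1 was past 2-fold lower, 4 had intervals below and 1 above 0, and the median was -0.59. *Cd274* (PD-L1) stood at 213 CPM in UT and 134 in BUP, a log2 ratio of -0.66 (-0.98 to -0.35), and was detected in 34 of 51 and 39 of 67 cells. Per cell it ranged from 0 through 1.18 to 11.1 UMIs per 10000 in UT and from 0 through 0.676 to 13.6 in BUP, so the cells of both groups overlapped. *Pdcd1lg2* (PD-L2) stood at 63.0 and 24.0 CPM (-1.40, -2.10 to -0.72), from 56 and 28 UMIs. *Vsir* (VISTA) stood at 57.4 and 30.8 CPM (-0.90, -1.56 to -0.25). Among the 3 with ratios above 0 were *Lgals1*, galectin-1, at 884 and 1224 CPM (0.47, 0.34 to 0.60), and *Havcr2* (TIM-3), at 170 and 207 CPM (0.29, -0.01 to 0.59). Without cells cycling by the full list the ratio of *Lgals1* was -0.01, by the shorter list it was 0.48, and with the gate on 8 other genes it was -0.15. *Cd274* was also lower in BUP in migratory dendritic cells, at 1274 and 1005 CPM (-0.34, -0.61 to -0.07). In *Cd209a* dendritic cells *Cd274* was instead higher in BUP, at 252 and 343 CPM (0.44, 0.06 to 0.82). Its ratios in C1q macrophages (0.08) and CD8 T cells (0.11) had intervals that held 0.

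**Figure D3:**
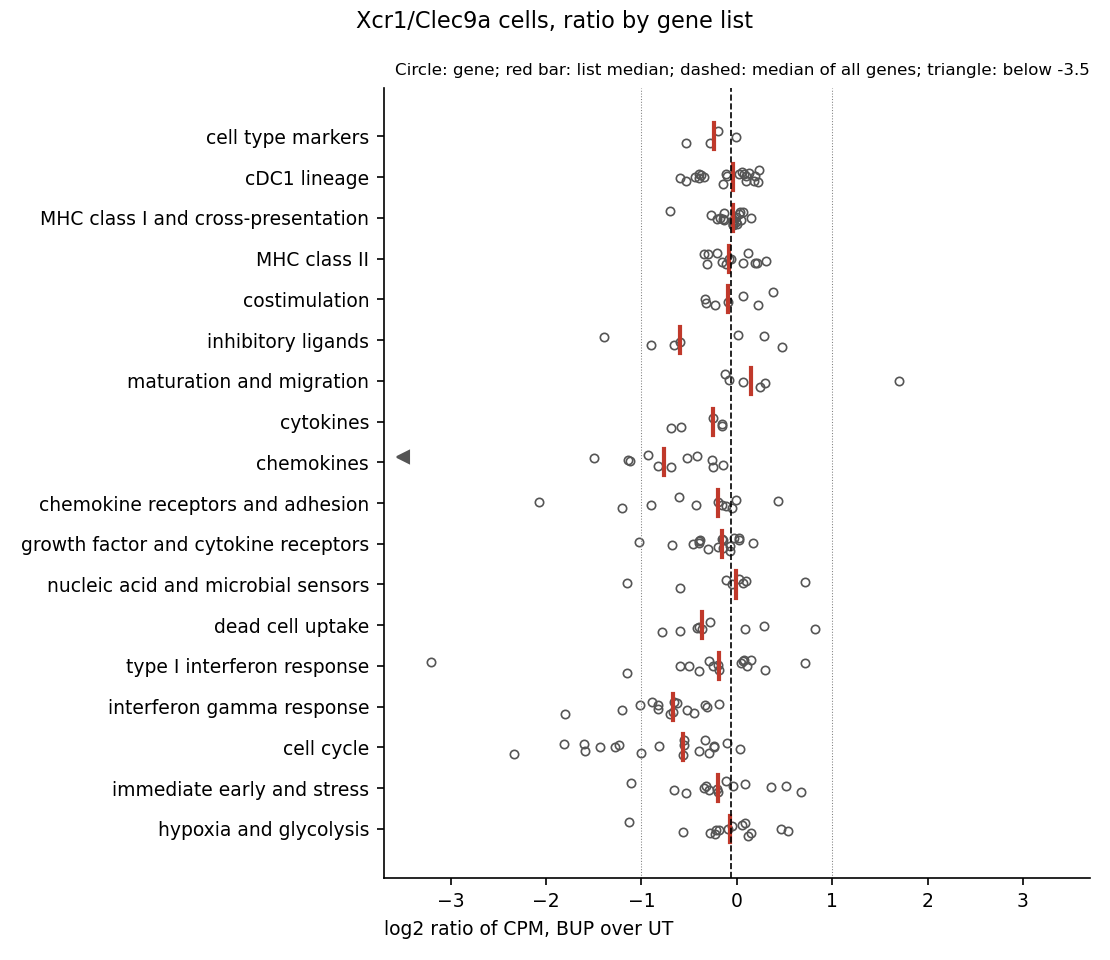
Log2 ratio of CPM, BUP over UT, in cDC1 for each compared gene (circles) of 18 gene lists, with the list median (red bar) and the median over all genes (dashed line). The triangle stands for *Cxcl3*, at -7.04 beyond the axis, and the medians of the chemokine, interferon gamma, inhibitory ligand and cell cycle lists lie farthest to the left.

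Chemokines were lower in BUP as a group. All 12 compared had ratios below 0, 4 were past 2-fold lower and 8 had intervals below 0, with a median of -0.76. *Cxcl9*, which draws *Cxcr3*-bearing T cells, stood at 235 and 133 CPM (-0.83, -1.14 to -0.52) and was detected in 21 cells of each library. In UT 65 of its 209 UMIs came from 1 cell, and in BUP 46 of 155. Without the highest cell of each library *Cxcl9* stood at 166 and 95.5 CPM. *Cxcl16* stood at 344 and 258 CPM (-0.42, -0.65 to -0.18). *Ccl6* stood at 431 and 152 CPM (-1.50), and *Cxcl3*, a neutrophil attractant, held 200 UMIs in UT and 2 in BUP. RNA of other cell types moved with these values: 10 UT and 4 BUP cells held at least 5 UMIs of the natural killer, neutrophil, erythroid or plasmacytoid lists, and 1 such UT cell held 89 of the 200 *Cxcl3* UMIs. Without those cells the list median was -0.12 and the ratio of *Ccl6* was 0.08. In a gate on 8 other cDC1 genes in place of *Xcr1* and *Clec9a*, which kept 33 cells in each library, the list median was 1.06, from 468 and 687 UMIs. The direction of this group depended on which cells were counted.

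Of 17 cytokines 5 were compared, all with ratios below 0. *Il12b*, a subunit of interleukin-12, was found in 5 UT and 6 BUP cells, at 37.1 and 23.1 CPM (-0.68, -1.47 to 0.09). *Il1b* stood at 760 and 508 CPM (-0.58, -0.74 to -0.42), and without the cells that held RNA of other types its ratio was 0.14. *Tnf* (159 and 142 CPM) and *Tgfb1* (195 and 163 CPM) had intervals that held 0.

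Genes of the interferon gamma response were lower in BUP in all 15 members compared. Of these 3 were past 2-fold lower and 9 had intervals below 0, with a median of -0.67. *Iigp1*, an immunity-related GTPase, stood at 86.7 and 24.8 CPM (-1.80, -2.47 to -1.17), in 17 and 13 cells. *Iigp1* was also lower in BUP in *Cd209a* dendritic cells (-1.91, -3.90 to -0.37), CD8 T cells (-0.75, -1.28 to -0.22) and C1q macrophages (-0.34, -0.44 to -0.25). In migratory dendritic cells its interval held 0. *Gbp2*, a guanylate-binding protein, stood at 181 and 78.7 CPM (-1.20, -1.59 to -0.82), in 30 and 25 cells. *Gbp2* was also lower in C1q macrophages (-0.54, -0.62 to -0.45), and in the other comparison classes its interval held 0. *Irgm1* stood at 90.1 and 44.5 CPM (-1.02, -1.55 to -0.50). Guanylate-binding proteins have near-identical paralogs, so the counts of single family members are uncertain. In the gate on 8 other cDC1 genes, which held 483 and 521 UMIs of this list, 10 of the 15 had ratios above 0 and the median was 0.36, so the direction of the list was not the same in every set of cDC1. Without the cells that held RNA of other types, 13 of 15 were below 0 and the median was -0.45.

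The type I interferon list differed from this. Of 28 genes 16 were compared, 2 past 2-fold lower, with 1 interval above and 3 below 0 and a median of -0.19. *Isg15*, a ubiquitin-like modifier, stood at 197 and 207 CPM (0.07, -0.21 to 0.36). *Irf7*, the transcription factor that amplifies type I interferon, stood at 218 and 359 CPM (0.72, 0.47 to 0.97), in 36 and 41 cells. Its ratio was 0.29 without cells cycling by the full list, -0.11 without those cycling by the shorter list and 1.51 with the gate on 8 other genes. Of the 419 *Irf7* UMIs in BUP, 91 came from 1 cell and 69 from another, and in UT 29 of 194 came from 1 cell. Leaving out the highest cell of each library gave 188 CPM in UT and 289 in BUP. With every cell weighted alike on a log-normalized scale, *Irf7* averaged 0.80 in UT and 0.85 in BUP. *Rsad2* (viperin) stood at 118 and 12.8 CPM, but 70 of its 105 UT UMIs came from 1 cell. *Ifih1*, a sensor of viral RNA, stood at 72.0 and 32.5 CPM, and 28 of its 64 UT UMIs came from 1 cell. In the gate on 8 other cDC1 genes, 14 of 15 list members with a UMI in both libraries had ratios above 0, with a median of 1.51 from 450 and 909 UMIs.

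In the list of nucleic acid and microbial sensors 8 of 17 genes were compared, 1 past 2-fold lower, with a median of -0.01. In the list of dead cell uptake 9 of 16 were compared, none past 2-fold, with a median of -0.37. *Timd4*, a receptor for phosphatidylserine on dying cells, stood at 245 and 143 CPM (-0.78, -1.08 to -0.48), and *Axl*, another such receptor, at 28.1 and 49.6 CPM (0.82, 0.12 to 1.56).

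*Gpr183* (EBI2), a receptor for oxysterols that positions dendritic cells and lymphocytes in tissue, was among the clearest differences. It stood at 219 CPM (190 to 253) in UT and 95 (78.2 to 114) in BUP, a log2 ratio of -1.21 (-1.56 to -0.86). The share of cDC1 with a UMI was 72.5% in UT and 43.3% in BUP, a difference of -29.3 points (-46.0 to -10.2). Per cell it ranged from 0 through 1.82 to 17.8 UMIs per 10000 in UT and from 0 through 0 to 8.42 in BUP. Thinned to 2000 UMIs, 29.4% and 16.4% of cDC1 had a UMI, against 21.0% and 16.6% of CD8 T cells, which express the gene at 114 and 82.2 CPM. *Gpr183* was likewise lower in BUP in migratory dendritic cells (590 and 78.6 CPM) and *Cd209a* dendritic cells (320 and 79.4 CPM). It was lower to a smaller degree in CD8 T cells (ratio -0.47, -0.68 to -0.25), and close to equal in C1q macrophages (85.4 and 77.7 CPM). Its ratio in cDC1 was below 0 under every alternative, from -2.84 to -0.64. The gene lies at chromosome 14, 122189592 to 122202610, minus strand, of GRCm39.

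**Figure D4:**
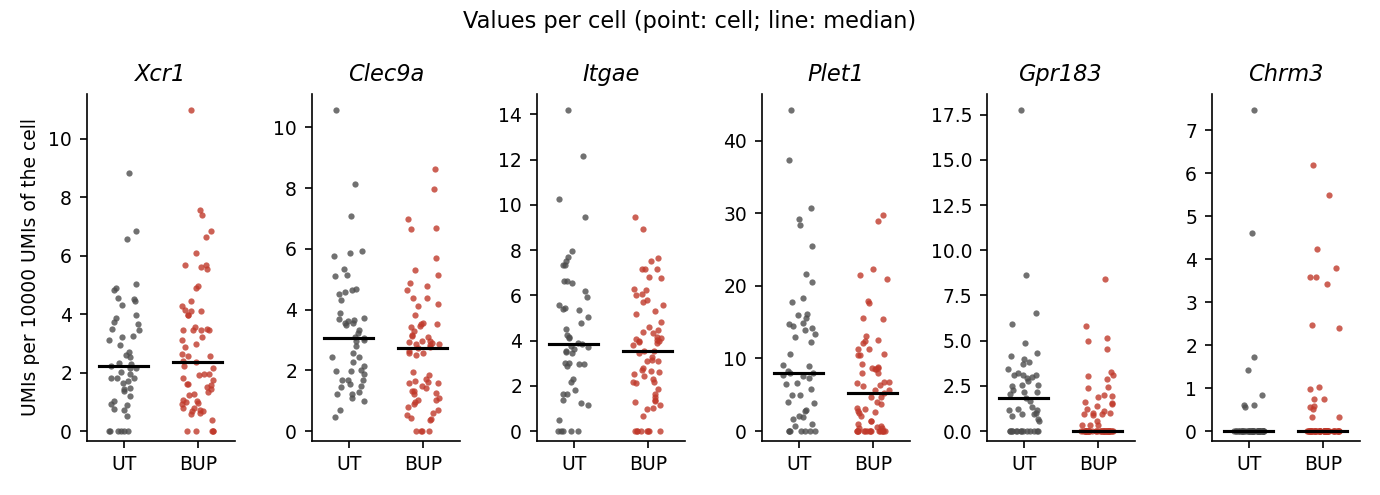
UMIs per 10000 (vertical axes, which differ between panels) of *Xcr1*, *Clec9a*, *Itgae*, *Plet1*, *Gpr183* and *Chrm3* in each of the 51 UT and 67 BUP cDC1, 1 point per cell with the median as a bar. *Gpr183* has a median of 1.82 in UT and 0 in BUP, and the cells of both groups overlap in every panel.

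*Gpr183* was 1 of 11 genes compared of 17 chemokine receptor and adhesion genes. Of these 2 were past 2-fold lower, 4 had intervals below 0, and the median was -0.20. Of 19 growth factor and cytokine receptors 17 were compared, 1 past 2-fold lower, with a median of -0.15. That gene was *Il10rb*, a chain of the interleukin-10 receptor, at 54.0 and 26.5 CPM (-1.03, -1.73 to -0.34), from 48 and 31 UMIs.

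Receptors for the transmitters of nerves were rare in cDC1. Of 21 cholinergic and adrenergic genes 14 had no UMI in these cells, *Chrna7* and *Chrm5* among them; 3 UMIs would be 3.38 CPM in UT and 2.57 in BUP. *Chrm3* was among the 2 with enough UMIs to compare. This gene, the M3 muscarinic acetylcholine receptor, stood at 27 CPM (17.3 to 40.2) in UT and 59.9 (46.7 to 75.7) in BUP, a log2 ratio of 1.15 (0.46 to 1.88). These were 24 UMIs in 8 of 51 UT cells and 70 UMIs in 18 of 67 BUP cells, and the difference in the share of cells was 11.2 points, with an interval from -5.21 to 26.2. In UT 11 of the 24 UMIs came from 1 cell, which also held RNA of other types, and without such cells the ratio was 2.31. Thinned to 2000 UMIs, 2 UT and 4 BUP cells had a *Chrm3* UMI (3.92% and 5.97%), against 0 and 0.178% of CD8 T cells. At that depth the ratio was -0.72, and with so few UMIs it could not show whether the libraries differed. Other classes held less *Chrm3*: 2.11 and 2.10 CPM in C1q macrophages and 0 UMIs in *Cd209a* dendritic cells, while migratory dendritic cells had 0 and 3 UMIs. *Chrm3* lies at chromosome 13, 9925522 to 10410883, minus strand, of GRCm39.

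Transcripts of mitosis were lower in BUP. Of 19 compared genes of the cell cycle list 8 were past 2-fold lower, 12 had intervals below 0, and the median was -0.56. *Mki67*, a marker of dividing cells, stood at 323 CPM (287 to 363) in UT and 107 (89.1 to 127) in BUP, a ratio of -1.59 (-1.91 to -1.29). *Top2a* stood at 247 and 104 CPM (-1.24), *Ube2c* at 294 and 83.9 (-1.81) and *Ccnb1*, a mitotic cyclin, at 51.8 and 10.3 (-2.33). *Pcna*, of the replication fork, stood at 85.5 and 87.3 CPM (0.03, -0.41 to 0.48). The share of cells with a *Mki67* UMI was 41.2% in UT and 29.9% in BUP, and the interval of the difference, -29.4 to 7.09 points, held 0.

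The share of cycling cells did not separate the libraries beyond counting error. With cells thinned to 2000 UMIs and at least 2 UMIs of the 20-gene list required, 26 of 51 UT cells (51.0%) and 33 of 67 BUP cells (49.3%) were cycling; unthinned, 96.1% and 97.0% were. The list genes *Tubb5*, *Hmgb2*, *Stmn1* and *Pcna* occurred in most cells. Without them, a choice made after seeing the data, 17 UT (33.3%) and 15 BUP cells (22.4%) were cycling, a difference of -10.9 points (-28.2 to 6.32); unthinned, 51.0% and 56.7% were. By this shorter list the thinned shares were 35.2% and 38.3% in CD8 T cells, 25.1% and 16.5% in C1q macrophages and 6.90% and 0 in migratory dendritic cells. Within the cDC1 cycling by this list, *Mki67* stood at 641 CPM in UT and 340 in BUP, and in the others at 30.3 and 30.7 CPM. *Mki67* is in the list, so its low level in the others was fixed by the split. Cycling cells were deeper, with a median of 23833 UMIs in UT and 22589 in BUP, against 13491 and 15570 in the others.

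The immediate early and stress genes went both ways. Of 14 compared 1 was past 2-fold lower, 3 had intervals above and 8 below 0, and the median was -0.20. *Jun* stood at 1152 CPM in UT and 732 in BUP (-0.65, -0.79 to -0.52), and per cell it ranged from 0.591 through 10.8 to 39.5 UMIs per 10000 in UT and from 0 through 5.11 to 33.3 in BUP. *Fosb* stood at 409 and 283 CPM (-0.53) and *Ier3* at 584 and 271 (-1.11, -1.31 to -0.90). *Atf3*, a stress-induced transcription factor, stood at 743 and 952 CPM (0.36, 0.22 to 0.50). The chaperones *Hsp90aa1* (280 and 401 CPM, ratio 0.52) and *Dnajb1* (56.3 and 89.9 CPM, ratio 0.68) were also higher in BUP. *Jun* was lower in BUP in migratory (-0.60) and *Cd209a* dendritic cells (-0.52) but not in C1q macrophages (0.04). *Ier3* was higher in BUP in *Cd209a* dendritic cells, with a ratio of 0.89 (0.64 to 1.13). Of 14 genes of hypoxia and glycolysis 1 was past 2-fold lower and the median was -0.07: *Ero1a*, an oxidase of the endoplasmic reticulum, stood at 56.3 and 25.7 CPM (-1.13, -1.84 to -0.45), and *Ldha*, lactate dehydrogenase, at 917 and 1018 (0.15).

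Over all genes with at least 100 UMIs, 664 of 3117 had an interval that left out 0 and fewer than 50% of their UMIs in the 5 highest cells, 275 higher and 389 lower in BUP. The 12 lowest ratios belonged to *Iigp1*, *Cenpe*, *Ccnb2*, *Mki67*, *Pde4d*, *Ssh2*, *Cenpf*, *Knl1*, *Fcgr3*, *Cpne4*, *1500015L24Rik* and *Cdk1*. Of these, *Cenpe*, *Ccnb2*, *Mki67*, *Cenpf*, *Knl1* and *Cdk1* act in cell division. *Pde4d*, a phosphodiesterase that degrades cyclic AMP, stood at 131 and 43.7 CPM (-1.58), and *Fcgr3*, a low-affinity receptor for IgG, at 131 and 50.5 CPM (-1.37). *Cpne4*, one of the leading genes of the class, stood at 131 and 53.1 CPM (-1.30). Its ratio was 0.09 without cells cycling by the full list and -0.36 without those cycling by the shorter list.

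The 12 highest ratios belonged to *Airn*, *Mt1*, *Ccdc59*, *Polr2k*, *Snhg12*, *Cdk6*, *mt-Nd3*, *Cebpz*, *Map3k8*, *Sft2d1*, *Ifi27l2a* and *Polr2f*. *Airn*, a non-coding RNA transcribed opposite to *Igf2r*, stood at 30.4 and 104 CPM (1.78, 1.17 to 2.44), in 15 of 51 and 35 of 67 cells. Of its 122 BUP UMIs 35 came from 1 cell, and the rest came to 75.8 CPM. Whether counting used strand is not given in the sources used here, so *Airn* and *Igf2r* reads may not be separable. *Airn* was close to equal in CD8 T cells (102 and 101 CPM). *Mt1*, a metallothionein that binds zinc and copper, stood at 161 and 407 CPM (1.34, 1.06 to 1.62), and was also higher in BUP in *Cd209a* dendritic cells (1.05), CD8 T cells (0.77) and C1q macrophages (0.49). In migratory dendritic cells it stood at 191 and 135 CPM (-0.51, -1.28 to 0.23). Its median per cell was 0.654 UMIs per 10000 in UT and 0.975 in BUP, while the highest cell held 9.19 and 35.2. *Polr2k* (33.8 and 67.6 CPM) and *Polr2f* (46.1 and 82.2 CPM) encode subunits of RNA polymerase II.

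**Figure D5:**
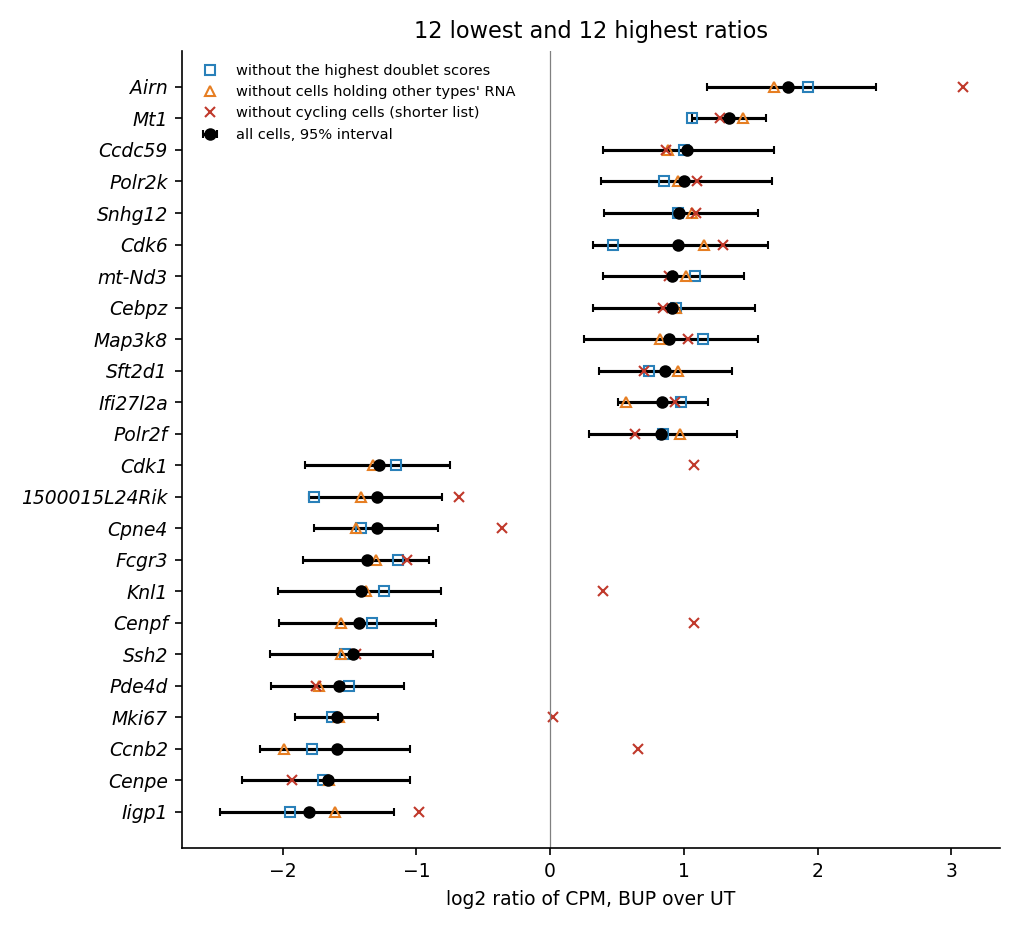
Log2 ratio of CPM, BUP over UT (horizontal axis), of the 24 genes with the highest and lowest ratios in cDC1, as black points with exact counting intervals. Open symbols give the ratio without the highest doublet scores or without cells that held RNA of other types. Crosses give the ratio without cells cycling by the shorter list. The crosses of *Cdk1*, *Knl1*, *Cenpf*, *Mki67* and *Ccnb2* lie above 0, at 1.07, 0.39, 1.07, 0.02 and 0.66. All of these but *Knl1* are in that list, so leaving out cycling cells selected on them.

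RNA of most other cell types was low in sum and uneven between cells. The T cell list summed to 42.8 CPM in UT and 15.4 in BUP, against 3262 and 2938 in CD8 T cells, and *Bcl11b* and *Trbc2* were at 0 in both. *Cd79a*, *Ms4a1* and *Jchain* of the B and plasma cell list were at 0, and the list summed to 50.7 and 52.2 CPM. *Cd209a* was at 0, and its list summed to 525 and 461 CPM against 3858 and 2610 in the *Cd209a* class. The macrophage and monocyte list summed to 3450 and 2795 CPM, against 42816 and 38516 in C1q macrophages. The gates fix this contrast in part, since 3 of the 16 list genes are the C1q genes they used. All cDC1 held RNA of this list, and 45 of 51 UT and 59 of 67 BUP cells held at least 5 UMIs. Ratios given without cells that held RNA of other types did not leave out cells for this list. *Spp1*, osteopontin, stood at 337 and 936 CPM (1.48), and at a ratio of -0.23 without the 6% of barcodes with the highest doublet scores. *Arg1*, arginase, held 167 UMIs in UT and 38 in BUP. The neutrophil list summed to 1106 and 551 CPM, with its RNA in 12 and 11 cells. The natural killer list summed to 373 and 448 CPM, and 295 of 296 *Gzma* UMIs in BUP were in 1 cell. The erythroid list summed to 695 and 2.57 CPM, with 249 of 251 *Hbb-bs* UMIs of UT in 1 cell. The plasmacytoid list summed to 141 and 51.4 CPM, and all 24 UMIs of *Siglech* were in 1 UT cell. Mast cell genes summed to 145 and 110 CPM, mostly *Kit*, with *Fcer1a* and *Mrgprb2* at 0, and tumour and fibroblast genes to 14.6 and 61.6 CPM. Among the cDC1, 3 of 51 UT and 7 of 67 BUP cells were in the top 6% of doublet scores of their library. The caller marked 0.447% of UT cells, too few to have worked there, and 2.33% of BUP cells; 3 BUP cDC1 were marked. Beyond the ratios given without these cells, the part of such RNA in the differences was not tested.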

How the data were processed

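The authors deposited 2 matrices of raw UMI counts (genes by barcodes), 1 for each library, made with Cell Ranger 8.0.1 per the file headers on GRCm39; Seurat 5.0.1 is named in the submitters' processing notes. Barcodes with less than 20% mitochondrial UMIs were kept, 7163 of 7556 in UT and 6776 of 7221 in BUP, where all barcodes held 83228442 and 89918925 UMIs. The cDC1 and comparison classes were gated on UMIs as the results describe; C1q macrophages had at least 15 C1q UMIs per 10000, and CD8 T cells a *Cd8a* UMI with 2 or more *Cd3* UMIs. The members and all gene lists were chosen with earlier results of these data known.

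Counts were summed over the cells of each library and scaled per 1000000 UMIs (CPM). Exact intervals (Poisson for sums, Clopper-Pearson for shares, conditional binomial for ratios; 95%) were computed with SciPy 1.17.1, and share differences were combined from the limits of both shares. Ratios are given for genes with at least 50 UMIs. The code was tested on simulated data. Shares of cells with a UMI were compared after thinning each cell to 2000 UMIs; no cDC1 and at most 33 cells of a comparison class in a library were shallower and left out. Doublet scores came from Scrublet in Scanpy 1.11.5. Named genes were the markers, the lists, the 25 leading genes, and the 12 highest and 12 lowest ratios among genes with at least 100 UMIs whose interval left out 0 and of which 5 cells held under 50% of the UMIs. Which list members are given in full, and which cells and classes are set beside them, was decided after their values were seen. The gate on 8 other cDC1 genes asked for summed *Itgae*, *Plet1*, *Cadm1*, *Tlr3*, *Wdfy4*, *Snx22*, *Naaa* and *Gcsam* at or above the median of the cDC1 (44.6 UMIs per 10000), in place of *Xcr1* and *Clec9a*. No column held another sample, and no sequence is printed. Some single genes of the lists are not reported here.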

Additional observations from a re-analysis of the deposited data

How the results depend on the processing

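No paired analysis was possible because each group was 1 library, and for the same reason no library could be left out and no result was tested. Of 1417 recomputed ratios of 102 named genes, 1169 stayed within the counting interval of the reported ratio, 196 moved out of it with the same direction or without an interval that had left out 0, and 52, in 30 genes, took the other sign. Of 292 list medians 266 moved by less than the spread among the members of the list and 26 by more; where no gene of a list had a UMI in both libraries no value was computed. Thinning belongs to the definition of the cycling share and gave it no further value. The alternatives on cells with RNA of other types, on the shorter cell cycle list, on cells of at least 5000 UMIs and on the denominators of 3 dendritic classes and without C1q macrophages were chosen after seeing the data. The cause of each change was not tested, except that cell cycle genes were what leaving out cycling cells selected on.

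The share of cDC1 was 0.584% in UT and 0.814% in BUP with the gate on 8 other genes, 1.28% and 2.21% among cells of at least 5000 UMIs, and 40.2% and 58.8% of the 3 dendritic classes. With at least 5 UMIs of *Xcr1* and *Clec9a* the BUP share was 1.23%, and of all cells it was 0.989%. The count of genes at least 2-fold higher and lower in BUP, 60 and 118 as reported, was 36 and 51 with the gate on 8 other genes, 7 and 9 of 645 genes after thinning to 2000 UMIs, and 32 and 39 without cells cycling by the full list. It was 14 and 47 for genes of at least 100 UMIs and 220 and 346 for those of at least 20. Without the highest doublet scores 25 genes were at least 2-fold higher, and without cells cycling by the shorter list 60 were at least 2-fold lower. The cycling shares were 33.3% and 22.4% by the shorter list.

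Ratios (log2, BUP over UT) took the other sign as follows. Without cells cycling by the full list they were 0.012 for *Irf8*, -0.062 for *Id2*, -0.024 for *Cst3*, 0.30 for *Nlrc5*, 0.073 for *Cd86*, -0.0075 for *Lgals1*, 0.068 for *Cxcl16*, 0.53 for *Kit*, 0.94 for *Ifih1*, 0.35 for *Mki67*, 1.35 for *Top2a*, 0.43 for *Hmgb2*, 2.52 for *Ube2c*, -1.44 for *Spp1*, 0.94 for *Knl1* and 0.091 for *Cpne4*. Without cells cycling by the shorter list they were -0.14 for *Id2*, -0.051 for *Cst3*, 0.0014 for *Cd86*, 0.75 for *Ifih1*, -0.11 for *Irf7*, 0.020 for *Mki67*, 1.01 for *Top2a*, 1.07 for *Cdk1* and *Cenpf*, 0.66 for *Ccnb2*, 0.59 for *Hmgb2*, 2.13 for *Ube2c*, -0.015 for *Ldha* and 0.39 for *Knl1*. With the gate on 8 other genes they were 0.039 for *Tap1*, 0.36 for *Nlrc5*, 0.022 for *Cd86*, -0.15 for *Lgals1*, 1.06 for *Cxcl9*, 1.75 for *Ifih1*, 1.07 for *Iigp1*, -0.073 for *Ldha* and -0.16 for *Spp1*. Thinned, they were 0.021 for *Irf8*, 0.39 for *Kit*, 2.19 for *Ifih1*, 1.19 for *Cenpf*, -0.72 for *Chrm3* and -0.14 for *Ldha*. Without cells that held RNA of other types they were 0.14 for *Il1b*, 0.079 for *Ccl6* and 0.85 for *Arg1*, and without the highest doublet scores 0.017 for *Cd74* and -0.23 for *Spp1*. *Cd86* was at 0.024 with no *Ccr7* UMI allowed, and the difference of mean log-normalized expression of *Cadm1* was -0.012.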
